A study of Mus musculus with 6 samples.

Results

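The spindle assembly checkpoint and the mitotic kinases were followed through 10 genes, Mad1l1, Mad2l1, Bub1, Bub1b, Bub3, Ttk, Aurka, Aurkb, Plk1 and Cdc20, which were taken by name from a table of 21959 genes. RNA was sequenced from 2 mouse gastric adenocarcinoma cell lines, with 3 libraries per line. MPC is the untreated parental line and MPC-PTX its paclitaxel (PTX) resistant derivative, called MTC and MTC-R by the study. Both lines carry the genotype CDH1-/-;Trp53-/- and descend from gastric organoids of a Trp53flox/flox;Cdh1flox/flox;Mist1-CreER C57BL/6J mouse, grown as a subcutaneous tumour in nude mice and then taken into culture in RPMI medium. MPC-PTX had gone through over 30 cycles of PTX, and each line was selected as a single clone, so a difference between the lines is also a difference between 2 clones. The labels do not say whether the 3 libraries of a line came from separate cultures, so the p-values measure only the spread between these libraries, which may be technical.

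The checkpoint holds a cell in metaphase until every chromosome is attached to spindle microtubules. Kinetochores without attachment recruit the kinases Ttk (also called Mps1) and Bub1 with Bub3, then Mad1l1 and Mad2l1, and Mad2l1, Bub1b (BubR1) and Bub3 bind Cdc20 in a complex that stops it from activating the anaphase-promoting complex. Aurka serves centrosomes and spindle assembly, Aurkb corrects faulty attachments, and Plk1 acts from mitotic entry to cytokinesis. PTX stabilises microtubules and arrests dividing cells through this checkpoint. Most of these genes are transcribed in late G2 and mitosis, so in RNA from whole cultures fewer cells in mitosis and less RNA per mitotic cell cannot be told apart.

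Promoters of mitotic genes often hold a CCAAT box, which binds NF-Y, and the cell cycle genes homology region, read by the DREAM and MuvB complexes. RefSeq promoters on GRCm38.p6, running from 250 bases before to 50 after the start site, were found for 9 of the 10 genes, all but Aurkb. The letters CCAAT on either strand occurred in 7 of the 9, against 41.1% of 27025 genes, and TTTGAA on either strand in 6 of the 9, against 20.2%. The 150 bases before the start site are printed for the 4 genes whose lines did not overlap in expression, Bub1b (chr2:118598061-118598210, plus strand), Aurka (chr2:172370571-172370720, minus strand), Cdc20 (chr4:118437344-118437493, minus strand) and Plk1 (chr7:122159285-122159434, plus strand), and for Bub1 (chr2:127831860-127832009, minus strand), whose value moved most with the choice of libraries. Each reads 5′ to 3′ along the gene's strand, and capitals mark CCAAT or TTTGAA, or their reverse complements ATTGG and TTCAAA.
Bub1b: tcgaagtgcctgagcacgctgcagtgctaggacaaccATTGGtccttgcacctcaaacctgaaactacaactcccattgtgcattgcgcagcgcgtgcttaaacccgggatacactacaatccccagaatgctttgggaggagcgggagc
Aurka: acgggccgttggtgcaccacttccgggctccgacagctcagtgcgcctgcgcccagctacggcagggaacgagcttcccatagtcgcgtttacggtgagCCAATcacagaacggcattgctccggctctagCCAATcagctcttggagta
Cdc20: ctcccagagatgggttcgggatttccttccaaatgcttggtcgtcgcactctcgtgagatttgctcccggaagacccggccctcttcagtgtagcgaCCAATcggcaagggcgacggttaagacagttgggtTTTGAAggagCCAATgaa
Plk1: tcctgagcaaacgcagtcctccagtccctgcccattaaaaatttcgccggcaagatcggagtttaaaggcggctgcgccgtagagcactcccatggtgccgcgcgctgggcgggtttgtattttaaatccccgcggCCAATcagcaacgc
Bub1: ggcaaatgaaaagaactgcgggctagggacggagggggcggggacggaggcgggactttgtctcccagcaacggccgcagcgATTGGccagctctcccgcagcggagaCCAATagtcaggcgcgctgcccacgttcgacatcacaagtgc
Aurka, Cdc20 and Bub1 each held 2 CCAAT boxes in this stretch, and Bub1b and Plk1 held 1. In Plk1 the box began at position -14 from the start site, in Aurka at -51 and -19, and in Cdc20 at -53 and -8. TTTGAA lay within the printed bases only in Cdc20, at -18, where it did not overlap a CCAAT box. Bub1b, Aurka and Plk1 had it after the start site, and Bub1 had it nowhere in its window. A match describes the letters only.

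Library totals ran from 16574580 to 23148182 counts, and between 13897 and 14295 genes had a count. The MPC libraries differed far more from each other than the MPC-PTX libraries did, with a biological coefficient of variation over all genes of 17.9% against 3.01%. Within MPC, replicate 3 stood apart from replicates 1 and 2. Its deviations from the mean of all 6 libraries, taken over genes, had a Spearman rho of -0.413 with transcript GC content. MPC replicates 1 and 2 had 0.412 and 0.266 and the MPC-PTX libraries -0.218 to -0.0324. By this measure MPC replicate 1 was as extreme in the other direction, and the MPC-PTX libraries shared the sign of MPC replicate 3. Keratins and Epcam were abundant in both lines, but the 6 of 15 gastric epithelial markers with enough counts to test (Epcam, Krt7, Krt8, Krt18, Krt19 and Cldn18) were all lower in MPC-PTX, with a summed level of all 15 between 8739 and 10191 in MPC and between 5451 and 5593 in MPC-PTX, in CPM. CPM are counts scaled to the size of the library, taken as the plain total for these marker sums and as the total adjusted by TMM for single genes. Their part in the differences reported here was not tested. Tff1, Tff2, Pgc and Gkn2, which mark differentiated gastric cells, were at 0 in every library. Summed markers of leukocytes stayed at or below 0.913 CPM, those of endothelial cells at or below 4.70 CPM and those of fibroblasts at or below 10.8 CPM. Cdh1 was counted at 134 ± 2.28 CPM in MPC and 133 ± 2.72 CPM in MPC-PTX, and Trp53 at 4.74 ± 1.32 and 6.17 ± 0.379 CPM (SD, n = 3 each). Counts per whole gene do not show whether the deleted exons were read, so they do not check the genotype.

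All 10 genes were well covered, with 378 to 4676 counts in a library, and all passed the filter on low counts. In 9 of them, all but Mad2l1, the coefficient of variation over 3 libraries was larger in MPC, from 3.62% (Aurkb) to 35.7% (Bub1), than in MPC-PTX, where it ran from 1.08% (Bub1b) to 8.74% (Bub1). Positions are given on GRCm38. Per kilobase of transcript, the MPC mean was highest for Mad2l1 at 98.1 CPM per kilobase, with Aurka at 96.8, Cdc20 at 96.0 and Bub3 at 94.7, and the ranges of neighbours in this order overlapped. Plk1 (66.2), Bub1b (59.7) and Aurkb (59.5) formed a middle tier with overlapping neighbours, clear of the genes above and below it. Mad1l1 (19.9) and Bub1 (18.7) followed, and Ttk was lowest at 8.29 CPM per kilobase. In MPC-PTX the tiers held the same genes, but within the middle tier Bub1b, at 48.1 CPM per kilobase, lay below Aurkb (58.6) and Plk1 (57.1) with no overlap. Mad2l1 (91.3) and Bub3 (88.6) overlapped there and lay above Cdc20 (84.0) and Aurka (81.1), which overlapped with each other.

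The comparison of the lines asks whether cells selected on a spindle poison carried other amounts of the RNAs of the checkpoint that the poison engages. Bub1b and Aurka fell in MPC-PTX, and no gene of the 10 rose, by edgeR's quasi-likelihood test at a Benjamini-Hochberg adjusted p below 0.05. Over all 11795 tested genes the same test called 29.7%, made up of 15.6% lower and 14.1% higher, so 2 of 10 lower is a share near the background and not a result about the set. At an unadjusted p below 0.05, 4 of the 10 were lower (Bub1b, Aurka, Cdc20 and Plk1), against 20.2% of all tested genes, and 0 were higher, against 20.8%. DESeq2 also called 0 higher. The differences were small. The log2 fold changes (MPC-PTX minus MPC) had a median of -0.11, against 0.04 over all tested genes, and a median absolute value of 0.13 against 0.24. In 8 of the 10 genes the value was negative. None met the study's own rule, which asks for more than 1 in either direction on the log2 scale and an unadjusted p below 0.05 and which 8.11% of tested genes met.

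**Figure D1:**
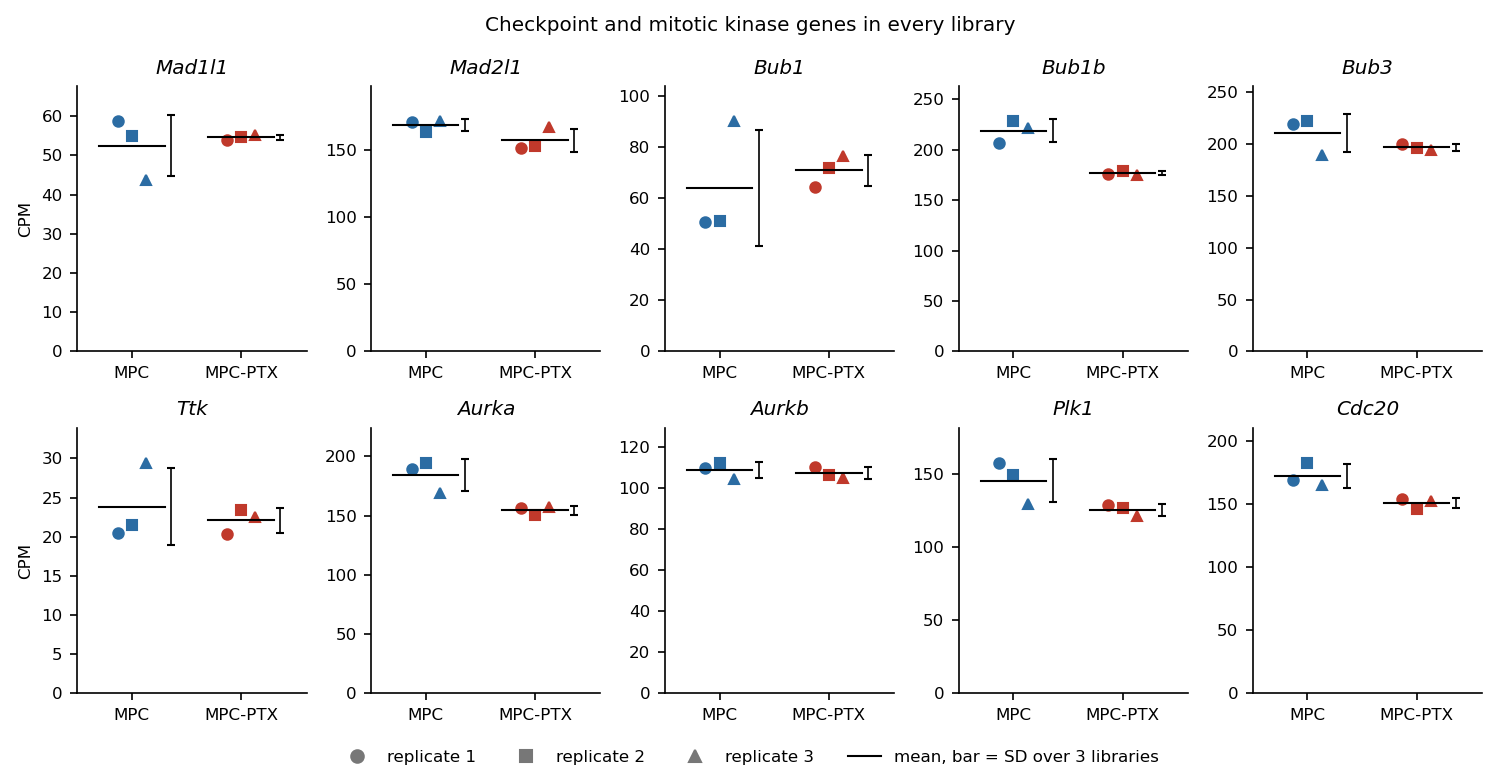
Level of each of the 10 genes (y axis, CPM, from 0) in the MPC (blue) and MPC-PTX (red) libraries, with the replicate number as the symbol, the mean as a line and the SD over 3 libraries as a bar. The lines do not overlap for Bub1b, Aurka, Plk1 and Cdc20, and the third MPC library (triangle) lies far above the other two for Bub1 and Ttk.

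Among the genes of the inhibitory complex, Bub1b (chr2:118598211-118641591, plus strand) was measured at 206, 229 and 222 CPM in MPC replicates 1 to 3 and at 176, 179 and 175 CPM in MPC-PTX replicates 1 to 3. Every MPC-PTX library lay below every MPC library. The mean went from 219 ± 11.5 to 177 ± 1.90 CPM (SD, n = 3), a fitted log2 fold change of -0.31 (SE 0.06, adjusted p = 0.00862, edgeR), so Bub1b fell by 19.4%. The lines did not overlap in 4 of the 10 genes, all lower in MPC-PTX, against 22.7% of tested genes lower and 24.2% higher by that measure. Bub1b kept its call in 12 of 14 alternative fits and missed it without MPC-PTX replicate 1 (adjusted p = 0.0534) and without MPC-PTX replicate 3 (adjusted p = 0.0524), with a log2 fold change between -0.35 and -0.27 throughout.

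Mad2l1 (chr6:66535390-66547220, plus strand), which binds Cdc20 directly, was at 171, 164 and 172 CPM in MPC and at 151, 154 and 168 CPM in MPC-PTX. MPC-PTX replicate 3 lay within the MPC range and the other two libraries below it. The log2 fold change was -0.10 (95% interval -0.25 to 0.05, adjusted p = 0.270, edgeR), and -0.25 (adjusted p = 0.129) with a correction for transcript GC content and length. Bub3 (chr7:131560222-131571895, plus strand), the partner of both Bub1 and Bub1b, was at 219, 222 and 189 CPM in MPC and at 200, 196 and 194 CPM in MPC-PTX. MPC replicate 3 was the lowest of all 6 libraries, and the others of MPC were the highest. Its log2 fold change of -0.10 (95% interval -0.27 to 0.08, adjusted p = 0.372) went to -0.22 (SE 0.05, adjusted p = 0.00274) without MPC replicate 3. With the GC and length correction it was -0.07 (adjusted p = 0.430).

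Of the genes that build the signal at kinetochores, Mad1l1 (chr5:140008689-140321552, minus strand), the anchor of Mad2l1, was at 58.9, 54.9 and 43.8 CPM in MPC and at 54.0, 54.7 and 55.3 CPM in MPC-PTX. The MPC-PTX libraries were nearly equal and lay inside the MPC range. Its log2 fold change was 0.06 (95% interval -0.21 to 0.32, adjusted p = 0.729), and -0.11 without MPC replicate 3. Bub1 (chr2:127801122-127831865, minus strand), the kinase that recruits Bub1b and marks centromeric chromatin, was at 50.6, 51.1 and 90.4 CPM in MPC and at 64.3, 71.7 and 76.6 CPM in MPC-PTX. Every MPC-PTX library lay above MPC replicates 1 and 2 and below MPC replicate 3. With all libraries the log2 fold change was 0.14 (95% interval -0.41 to 0.70, adjusted p = 0.673, edgeR). Without MPC replicate 3 it was 0.42 (SE 0.08, adjusted p = 0.00176), and with the GC and length correction 0.03 (adjusted p = 0.804). Ttk (chr9:83834689-83872389, plus strand), the kinase at the head of the pathway, was at 20.5, 21.5 and 29.5 CPM in MPC and at 20.4, 23.4 and 22.5 CPM in MPC-PTX. Again MPC replicate 3 was the highest, and the other five libraries were mixed. The log2 fold change was -0.11 (95% interval -0.46 to 0.24, adjusted p = 0.617), and 0.02 without that library.

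Cdc20 (chr4:118432901-118437352, minus strand), the target of the checkpoint and activator of the anaphase-promoting complex, was at 169, 183 and 165 CPM in MPC and at 154, 146 and 152 CPM in MPC-PTX. The lines did not overlap. Its log2 fold change of -0.19 (95% interval -0.34 to -0.04) had an unadjusted p of 0.0187 and missed the threshold after adjustment (adjusted p = 0.0592, edgeR). It passed without MPC replicate 3, at -0.28 (adjusted p = 0.00248), and without MPC replicate 1, at -0.21 (adjusted p = 0.0467). It was smaller without MPC replicate 2, at -0.15 (adjusted p = 0.190), and with a correction for transcript GC content and length, at -0.097 (adjusted p = 0.299).

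Among the kinases, Aurka (chr2:172356190-172370535, minus strand) was at 189, 195 and 169 CPM in MPC and at 156, 150 and 157 CPM in MPC-PTX. All MPC libraries were above all MPC-PTX libraries, the third by the least. Aurka fell by 16.2% (log2 fold change -0.26, SE 0.07, adjusted p = 0.0330, edgeR), from 184 ± 13.7 to 154 ± 3.64 CPM (SD, n = 3). This call was lost without MPC replicate 2 (adjusted p = 0.120) and without MPC-PTX replicates 1, 2 or 3 (adjusted p = 0.112, 0.143 and 0.105), and with the replicate number as a block (adjusted p = 0.0522) or library size alone as the scaling (adjusted p = 0.0566). In these fits the log2 fold change lay between -0.27 and -0.21. Without MPC replicate 3 it was -0.37 (adjusted p = 0.000200).

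Plk1 (chr7:122159439-122169873, plus strand) was at 158, 149 and 129 CPM in MPC and at 129, 127 and 121 CPM in MPC-PTX. The lines were apart by less than 1 CPM, because MPC replicate 3 (129.3 CPM) sat next to MPC-PTX replicate 1 (129.1 CPM). Its log2 fold change was -0.21 (95% interval -0.41 to -0.01, adjusted p = 0.104), and Plk1 fell by 0.34 on the log2 scale without MPC replicate 3 (adjusted p = 0.000366, edgeR). With the GC and length correction the value was -0.13 (adjusted p = 0.0587), and without MPC replicate 1 it was -0.15 (adjusted p = 0.176). Aurkb (chr11:69045647-69051664, plus strand), the kinase of the chromosomal passenger complex, was at 110, 112 and 105 CPM in MPC and at 110, 106 and 105 CPM in MPC-PTX. The libraries of both lines were mixed, and the interval of the log2 fold change, -0.17 to 0.12 around -0.02 (adjusted p = 0.812), was among the narrowest of the 10 genes. Its sign turned with library size alone as the scaling (0.02).

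**Figure D2:**
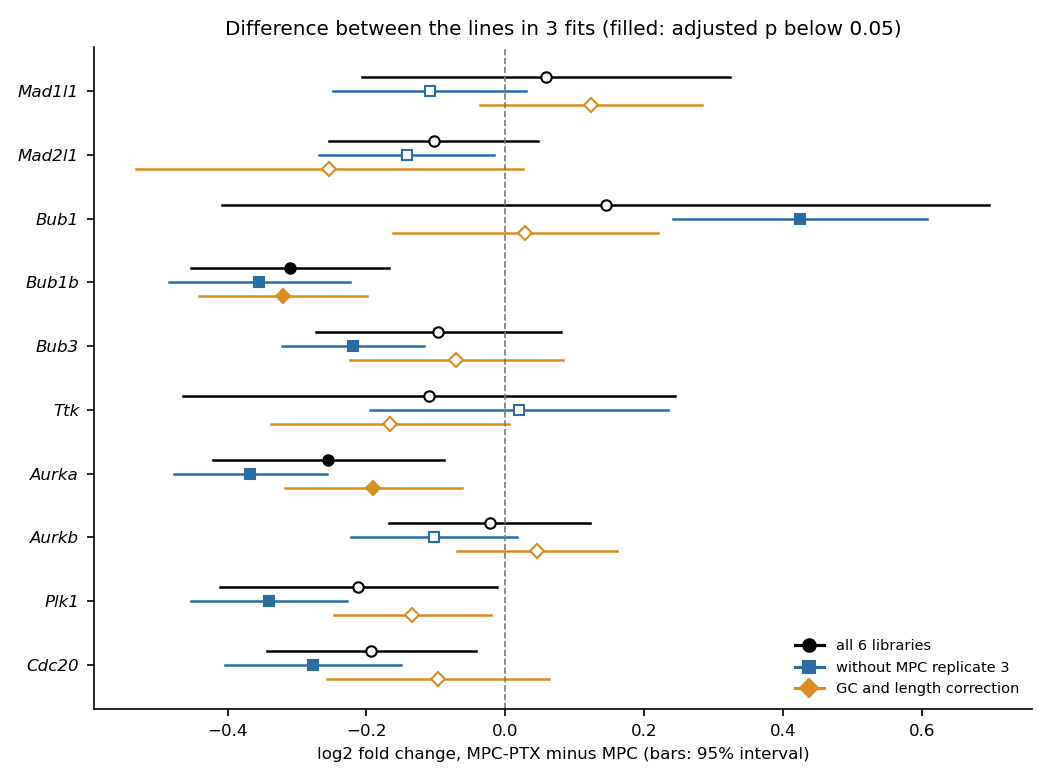
Log2 fold change of each gene, MPC-PTX minus MPC (x axis), with its 95% interval, from all 6 libraries (black circles), without MPC replicate 3 (blue squares) and with a correction for transcript GC content and length (orange diamonds). Filled symbols have an adjusted p below 0.05. Bub1b and Aurka are filled in all 3 fits, and Bub1, Bub3, Plk1 and Cdc20 only without MPC replicate 3.

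Without MPC replicate 3, edgeR called 5 of the 10 genes lower (Aurka, Bub1b, Bub3, Cdc20 and Plk1) and 1 higher (Bub1). The background was also larger, 52.5% of 11896 tested genes, made up of 27.1% lower and 25.4% higher. The MPC libraries left in that fit had a rho of 0.412 and 0.266 with transcript GC content, against -0.218 to -0.0324 in MPC-PTX. Line and this GC trend therefore cannot be told apart there. With each gene's counts corrected for transcript GC content and length within each library, Bub1b (log2 fold change -0.32, adjusted p = 0.00199) and Aurka (-0.19, adjusted p = 0.0255) were lower and 0 of 10 were higher, against 19.9% and 21.5% of tested genes (41.4% in all). After this correction Bub1 had a log2 fold change of 0.03 (95% interval -0.16 to 0.22). The shift of MPC replicate 3 from the mean of the other two MPC libraries ran from 0.83 for Bub1 and 0.49 for Ttk, with transcripts of 41.0% and 43.0% GC, to -0.25 for Plk1 and -0.38 for Mad1l1, with 56.0% and 56.8% GC. Mad2l1 had the lowest GC content, 40.8%, and a shift of 0.04. Pearson's r between GC content and shift over the 10 genes was -0.80, a description of 1 library in which the genes share depth and preparation. The part of GC content in these differences was not tested.

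**Figure D3:**
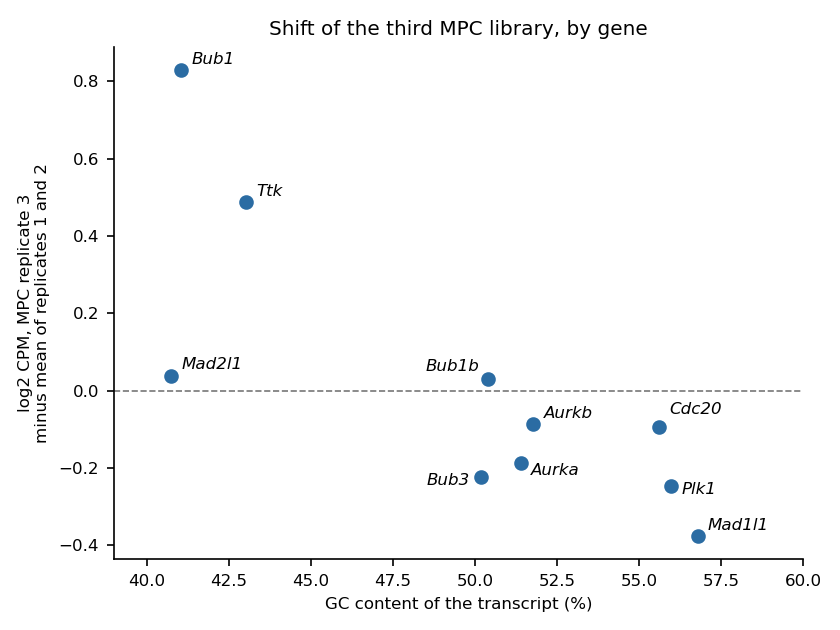
Log2 CPM of MPC replicate 3 minus the mean of MPC replicates 1 and 2 (y axis) against the GC content of the gene's transcript in percent (x axis), one point per gene. Bub1 and Ttk lie at 0.83 and 0.49 with low GC content, Mad2l1 is near 0 at a like GC content, and Mad1l1 is lowest at -0.38.

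Ratios of 2 genes within a library hardly depend on how the libraries are scaled. With 3 libraries against 3, the smallest p of the exact two-sided permutation test is 0.1, so no ratio could pass 0.05. The log2 ratio of Mad2l1 to Cdc20, an inhibitor to its target, was 0.02, -0.16 and 0.06 in MPC and -0.02, 0.07 and 0.14 in MPC-PTX. The lines overlapped, and the means differed by 0.09 (exact p = 0.4). The difference was 0.022 without MPC replicate 2 and turned to -0.14 with the GC and length correction. The log2 ratio of Bub1b to Cdc20 was 0.29, 0.32 and 0.43 in MPC and 0.19, 0.29 and 0.20 in MPC-PTX. Replicate 2 of MPC-PTX lay inside the MPC range, and the difference was -0.12 (exact p = 0.2), and -0.23 with that correction.

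A further pair of ratios was chosen after the levels had been seen. The log2 ratio of Aurka to Aurkb was 0.79, 0.79 and 0.69 in MPC and 0.50, 0.50 and 0.58 in MPC-PTX. The lines did not overlap, and the difference was -0.23 (exact p = 0.1), between -0.26 and -0.21 when any library was left out. The log2 ratio of Bub1 to Bub1b, paralogues with separate tasks, was -2.03, -2.16 and -1.29 in MPC and -1.45, -1.32 and -1.19 in MPC-PTX. MPC replicate 3 lay among the MPC-PTX libraries, so that the difference was 0.51 with all libraries (exact p = 0.3) and 0.77 without that library.

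**Figure D4:**
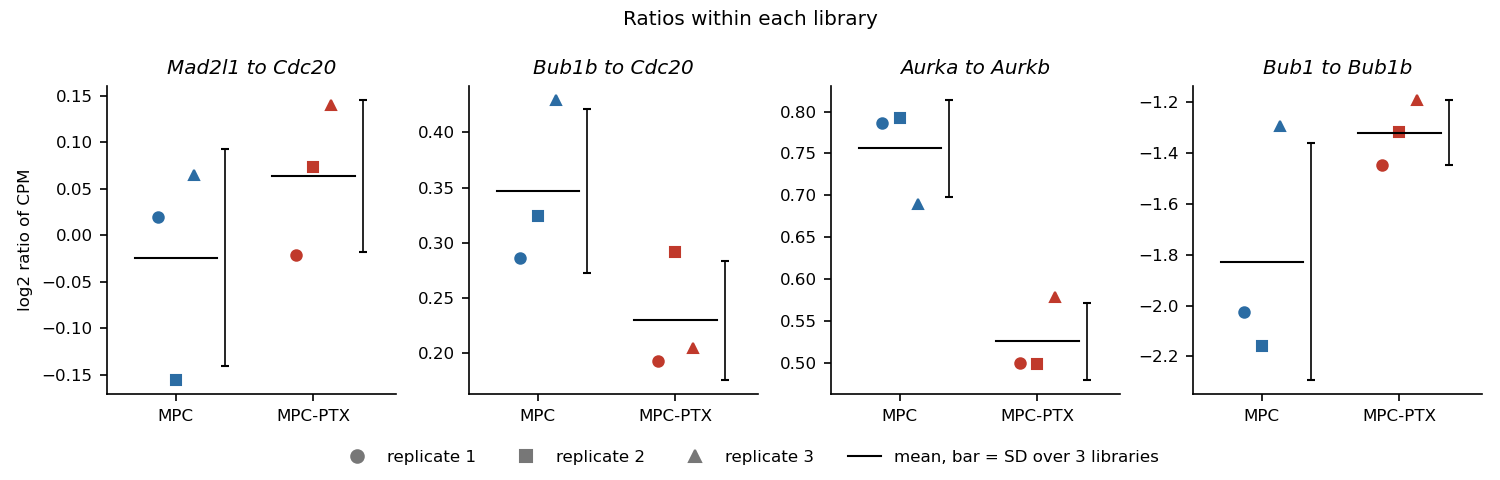
Log2 ratio of CPM within each library (y axis, a separate scale per panel) for 4 pairs of genes in MPC (blue) and MPC-PTX (red), with the mean as a line and the SD over 3 libraries as a bar. Only the ratio of Aurka to Aurkb separates the lines, and for Bub1 to Bub1b the third MPC library lies among the MPC-PTX libraries.

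The genes around these 10 were followed in 6 lists. Of 99 tested genes, 12 were higher and 16 lower in MPC-PTX by adjusted p (edgeR), against 14.1% and 15.6% of all tested genes, so the lists together were near the background, and their median log2 fold change was 0.02. Of the 18 mitotic entry genes, 6 were lower and 2 higher, with a median of -0.08. Cdk1, the kinase that drives entry into mitosis, fell from 254 ± 14.8 to 171 ± 5.16 CPM (SD, n = 3), a log2 fold change of -0.57 (SE 0.06, adjusted p = 0.000906). Cks2, a Cdk1-binding subunit, at -0.68 (adjusted p = 0.00112), and cyclin Ccnb2 at -0.50 (adjusted p = 0.00921) were also lower. Cyclin Ccna2 at -0.12 did not pass the test (adjusted p = 0.265). Bora, which helps Aurka to activate Plk1, rose by 0.43 (adjusted p = 0.0279).

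Of the 18 kinetochore genes, 5 were lower and 0 higher by edgeR, against 15.6% and 14.1% of all tested genes. At an unadjusted p below 0.05, 6 were lower and 0 higher, against 20.2% and 20.8%. DESeq2 called 6 lower and 0 higher. No set test was run on the lists. Spc24, a subunit of the microtubule-binding Ndc80 complex, had a log2 fold change of -0.58 (SE 0.10, adjusted p = 0.00510), and Zwint, which links Knl1 to checkpoint proteins, one of -0.42 (SE 0.06, adjusted p = 0.00275). Pmf1 at -0.34 and Nsl1 at -0.32, both of the Mis12 complex that ties the outer kinetochore to the centromere, were also lower (adjusted p = 0.0335 and 0.0242). Without MPC replicate 3 this list had 6 lower and 5 higher, against 27.1% and 25.4% of all tested genes. Its median went from -0.08 to 0.02. In the list of the chromosomal passenger complex and centromere guards, 2 of 7 were higher and 1 lower, against 14.1% and 15.6% of all tested genes. Sgo1, which protects centromeric cohesion, rose by 0.38 (adjusted p = 0.0353) and Haspin, the histone kinase that places the complex, by 0.28 (adjusted p = 0.0239), while Birc5, a subunit of that complex with Aurkb, fell by 0.23 on the log2 scale (adjusted p = 0.0211). With the GC and length correction the value of Sgo1 was 0.22 (adjusted p = 0.0737).

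Of 20 genes of the anaphase-promoting complex and its cofactors, 3 were lower and 2 higher by edgeR, against 15.6% and 14.1% of all tested genes. Fzr1 (Cdh1 in the protein literature, not the cadherin), the activator that follows Cdc20 at mitotic exit, fell from 83.7 ± 5.36 to 60.5 ± 1.48 CPM (log2 fold change -0.47, SE 0.07, adjusted p = 0.00347). Ube2s (-0.35) and Ube2c (-0.33), the ubiquitin-conjugating enzymes of the complex, fell too (adjusted p = 0.0312 and 0.0153). The core subunit Cdc16 rose by 0.44 (SE 0.05, adjusted p = 0.00108). Of 16 genes listed as G2/M transcription regulators, 5 were higher and 0 lower by edgeR, against 14.1% and 15.6% of all tested genes. At an unadjusted p below 0.05, 6 were higher and 1 lower, against 20.8% and 20.2%. DESeq2 called 5 higher and 0 lower, and the median was 0.20. No set test was run, so these counts are values only. This list also holds E2F and retinoblastoma family genes, and of the 5 higher all but Lin54 belong to these families. By edgeR 11 did not pass, among them Foxm1 at 0.11 (adjusted p = 0.173) and Mybl2 at 0.20 (adjusted p = 0.334). E2f2 had the largest difference, from 3.85 ± 0.765 to 10.6 ± 0.740 CPM (log2 fold change 1.46, SE 0.16, adjusted p = 0.000776), and was the 1 gene of the lists that met the study's rule. Rb1, the retinoblastoma protein, rose by 0.86 (adjusted p = 0.00720), Lin54, the MuvB subunit that reads the homology region, by 0.68 (adjusted p = 0.0198), and E2f7, a repressor, by 0.34 (adjusted p = 0.0324). In the S phase list 1 of 20 was higher, Ccne1 at 0.43 (adjusted p = 0.0457), and 1 lower, Gmnn at -0.33 (adjusted p = 0.0227). The shares over all tested genes were 14.1% and 15.6%. The median of this list was 0.07 and turned to -0.09 without MPC replicate 3.

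Of the named genes that were called in the main fit, Spc24, Zwint, Cks2, Cdk1, Ccnb2, Fzr1, Cdc16, E2f2 and Rb1 kept their calls in all 14 alternative fits. The other 12 lost theirs in some fits, in each case when any 1 of the 3 MPC-PTX libraries was left out, with the highest adjusted p between 0.0805 (Ube2c) and 0.157 (Ccne1). All of them but Gmnn also lost it without MPC replicate 2, and Sgo1 without MPC replicate 1 (adjusted p = 0.0561). The proliferation marker Mki67 and the kinetochore motor Cenpe differed several-fold among MPC libraries, with 988 to 4664 and 408 to 1732 counts. Their log2 fold changes of 0.30 (SE 0.47) and -0.14 (SE 0.44) did not pass the test. Without MPC replicate 3, where 52.5% of tested genes passed, Mki67 was at 0.99 (adjusted p = 0.0471, edgeR) and Cenpe at 0.44 (adjusted p = 0.299). With the GC and length correction they were at 0.21 (adjusted p = 0.596) and -0.24 (adjusted p = 0.458).

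**Figure D5:**
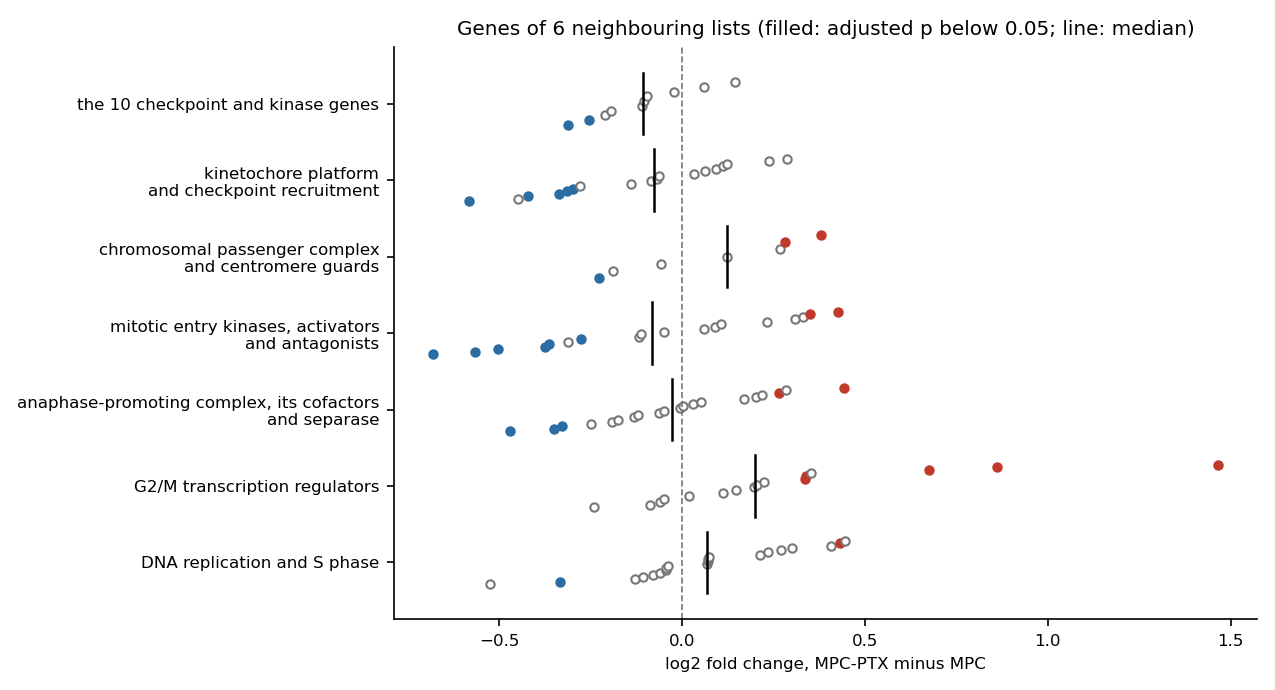
Log2 fold change, MPC-PTX minus MPC (x axis), of the 10 genes and of the genes of 6 lists, one point per gene, with the median of each list as a vertical line. Filled points have an adjusted p below 0.05, blue lower and red higher. Medians run from -0.11 for the 10 genes to 0.20 for the G2/M transcription regulators, and E2f2 lies farthest right at 1.46.

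The 10 genes did not share 1 pattern over the 6 libraries. Pearson's r of a gene with the mean of the other nine was 0.99 for Aurka, 0.94 for Cdc20, 0.83 for Bub1b and 0.83 for Plk1, and lower for Bub3 (0.69), Mad2l1 (0.47) and Aurkb (0.37). It was negative for Mad1l1 (-0.12), Ttk (-0.27) and Bub1 (-0.72). The genes outside the set most like its mean profile, among 9892 compared over 6 libraries, were Mpp1 (r = 0.999), Marcksl1, Sema4f, Rab11b and Glmp (r = 0.997 for each of these 4). All of them were lower in MPC-PTX, from -0.20 for Rab11b to -0.59 for Sema4f on the log2 scale, and the 6 points of each correlation fall in 2 lines.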

How the data were processed

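The authors selected poly-A RNA, sequenced it on an Illumina platform, filtered reads with fastp 0.22.0 (submitters' processing notes), mapped them with HISAT2 and deposited raw counts per gene for each library. The genome build, annotation, counting tool and use of strand are not given in the sources used here, so counts of overlapping genes are uncertain. Samples were grouped by the labelled cell line.

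From the deposited counts, genes were filtered with filterByExpr (minimum count 10), scaled with TMM and tested with edgeR 4.0.16 (glmQLFit, robust, and glmQLFTest; R 4.3.3) on all 6 libraries, with Benjamini-Hochberg adjustment over 11795 genes. Log2 CPM used a prior count of 2. The standard error is the log2 fold change divided by the square root of F. Each gene had a single dispersion for both lines, although the MPC libraries varied more than the MPC-PTX libraries. DESeq2 1.42.0, other scalings and filters, a replicate block, each library left out, and a loess correction (span 0.3) for GC content and length (11776 genes with a value) were alternatives. The script was tested on simulated counts with the same dispersion in every gene and library and no GC trend. That test does not cover the unequal spread and the GC trends of the real libraries. Ensembl identifiers were looked up in GENCODE M21 (GRCm38) for gene positions and for the length and GC content of the principal transcript.

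The 10 genes and the lists were chosen with earlier results of these data known. Within a list, genes were named if the adjusted p was below 0.05, the higher line had at least 5 CPM and the lines did not overlap, up to the 4 with the largest change. Mki67, Cenpe, Ccna2, Foxm1 and Mybl2 were added after their values were seen. The replicate numbers were taken to share only a number. Lists hold older symbols of 3 genes, which were counted once.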

Additional observations from a re-analysis of the deposited data

How the results depend on the processing

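Of 140 values of the 10 genes under 14 alternatives, 121 kept direction and call, 8 lost the call, 5 gained it and 6 changed sign. The count lower, 2 of 10, was 1 with library size alone and 0 to 5 when a library was left out (5 without MPC replicate 3, 0 without MPC-PTX replicate 1 or 3). The count higher, 0, was 0 to 1 when a library was left out. Over the 6 lists, 12 higher became 4 to 26 and 16 lower became 7 to 32 when a library was left out, and 12 higher became 20 with the replicate block and GC correction together. Among these fits the share over all tested genes was computed only without MPC replicate 3. There the lists had 26 higher and 32 lower, against 25.4% and 27.1% of all tested genes. The 10 genes had 1 higher and 5 lower in that fit. For the other fits no such share stands beside the counts, so these swings are not read as a result about the 10 genes or the lists. When a library was left out, Mad1l1 ran from -0.11 to 0.15, Ttk from -0.21 to 0.020 and Bub1 from -0.00013 to 0.42, and the sign differed for Mad1l1 and Ttk without MPC replicate 3 and for Bub1 without MPC replicate 1. It also changed for Aurkb with library size alone (0.016), the GC and length correction (0.045) and that correction with the block (0.046). With the GC and length correction the log2 ratio of Mad2l1 to Cdc20 changed from 0.09 to -0.14 and that of Bub1b to Cdc20 from -0.12 to -0.23; the cause was not tested. Of 294 values of the named list genes with a call in the main fit, 239 kept the call, 55 lost it and 0 changed sign.

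Correlations of deviations between same-numbered libraries were 0.151, -0.0227 and 0.173, and 2 of 3 MPC libraries correlated best with their own number. With 3 libraries per line, these values cannot decide whether the replicate numbers mark pairs. With the replicate block, 1 of the 10 genes, Bub1b, was lower (adjusted p = 0.0173, edgeR) and 0 were higher. With 3 libraries per line and the spread within MPC, a difference the size of those here could be missed, and the intervals beside the values give what was resolved.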
